A study of Mus musculus with 27 samples.

Results

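The subject is 10 genes of the circadian clock in the mouse liver lobule: Arntl, Clock, Npas2, Per1, Per2, Per3, Cry1, Nr1d1, Dbp and Tef. They were chosen by symbol from a table of 21823 protein-coding genes, and all 10 were found and passed the filter on low values that left 12952 genes. The libraries came from wild-type female C57BL/6 mice that were non-pregnant (NP), 8 days post coitum (dpc8) or 16 days post coitum (dpc16), young adults with no earlier pregnancy and of the C57BL/6N substrain by the study's methods. Small areas of lobular zone 1, around the portal vein, of zone 3, around the central vein, and of zone 2 between them were cut from frozen liver sections with a laser, and their RNA was sequenced. Each of the 9 groups of stage and zone had 3 libraries, numbered 1 to 3 in their names, 27 in all. The numbers are used here as labelled, and whether a number marks the same mouse in every zone is not given. The labels name no treatment and no transgene for any group. The time of day at which the livers were taken is not given in the sources used here, so stage and time of collection cannot be told apart.

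In the liver clock, the proteins of Arntl (also called Bmal1) and Clock pair and activate genes through a DNA motif called the E-box, and Npas2 can stand in for Clock. Among their targets are the Per and Cry genes, whose proteins shut off their own activators, Nr1d1 (Rev-erb alpha), which represses Arntl through a motif called the RORE, and Dbp and Tef, which act through a motif called the D-box. Over a day, Arntl and Npas2 RNA is known to run opposite in phase to Dbp, Nr1d1 and the Per genes, and Dbp is among the most strongly cycling transcripts of mouse liver.

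The motifs through which these genes act on one another can be seen in some of their own promoters, and the stretches around each match are shown because the values below are ordered by these roles. The sequences are RefSeq windows on GRCm38.p6 from 250 bases before to 50 bases after a start site, 14 windows for 9 of the 10 genes. Per2 has no entry in the table. Each stretch is written 5′ to 3′ on the strand of the gene, and capitals mark the matched motif. The E-box CACGTG was found at position -60 from the start site of Cry1, at -166 in 1 of 2 windows of Per1, and at -127 and -138 in 2 windows of Tef. The RefSeq start sites need not be the first base of the gene in the annotation used for positions. In the windows with an E-box the start site lay 10 bases downstream of that base in Cry1, 3732 in Per1, and 252 and 8993 in the first and the other window of Tef.

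Cry1 (chr10:85185089-85185134, minus strand): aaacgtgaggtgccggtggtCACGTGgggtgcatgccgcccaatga
Per1 (chr11:69098763-69098808, plus strand): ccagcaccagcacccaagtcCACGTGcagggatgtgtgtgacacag
Tef, first window (chr15:81802526-81802571, plus strand): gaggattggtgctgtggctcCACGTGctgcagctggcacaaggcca
Tef, other window (chr15:81811256-81811301, plus strand): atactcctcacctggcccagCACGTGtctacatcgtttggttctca

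The D-box, searched as TTATGTAA and TTACGTAA, matched at 2 places in the Per3 window, at -205 and -158, both as TTATGTAA. The RORE, searched as AANT followed by AGGTCA or by GGGTCA, matched once in 1 of 2 windows of Arntl, at position 28 after the start site.

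Per3 (chr4:151044796-151044890, minus strand): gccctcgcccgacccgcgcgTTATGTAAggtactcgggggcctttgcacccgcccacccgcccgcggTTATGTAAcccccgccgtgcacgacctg
Arntl (chr7:113207528-113207557, plus strand): ggaaggcagaAAGTAGGTCAgggacggagg

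Both strands were searched, and the 3 motifs do not overlap in these matches. Of all 32851 mouse windows in the table, 7.15% held the E-box, 1.06% a D-box and 0.435% a RORE. A match describes the letters of the window and is not a measured binding site, and the windows of Clock, Npas2, Nr1d1 and Dbp held none of these letters.

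The values are FPKM, which correct the reads on a gene for its length and for the depth of the library. The estimated depth was 7.53 to 33.5 M reads per library (M for mega), at which 1 read on 1 kilobase of transcript amounts to 0.0299 to 0.133 FPKM. The hepatocyte genes Alb, Ttr, Apoa1, Serpina1a and Hnf4a were detected in every library. Their summed level lay between 30812 and 95480 FPKM in NP and dpc8 libraries. At dpc16 it was 141390 to 221066 FPKM except in replicate 3 of zones 2 and 3, at 45962 and 61367 FPKM. The part of this difference in the stage changes below was not tested. The summed level of 7 periportal markers had a median of 3893 FPKM in zone 1 and 377 in zone 3, and that of 8 pericentral markers 360 and 14518, as the zone names require. Although all mice are labelled female, 4 Y-linked genes summed to over 5 FPKM (7.92 to 23.2) in 6 libraries. By stage, these libraries were replicate 1 of zone 1 and replicate 2 of zone 3 in NP mice, replicate 1 of zone 1 and replicate 2 of zone 2 at dpc8, and replicate 3 of both zones 2 and 3 at dpc16. All of them had a summed level of 680 to 4063 FPKM for 4 smooth muscle markers, against 0.941 to 465 in the other 21, so the tests were also run without them. In such tissue samples, fewer cells of a type and less RNA per cell cannot be told apart.

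Arntl, on chromosome 7 (GRCm38 113207465 to 113314126, ENSMUSG00000055116.8), encodes the activator on which the whole loop depends. In NP mice its level in replicates 1, 2 and 3 was 3.98, 13.99 and 0.478 FPKM in zone 1, 0.804, 16.9 and 19.7 FPKM in zone 2, and 0.642, 14.1 and 0.163 FPKM in zone 3. Replicate 2 was thus high in all zones, and replicate 3 was high in zone 2 and near the lowest level of the series in zones 1 and 3. At dpc8 Arntl was at 6.46, 4.12 and 4.95 FPKM in zone 1, 0.720, 4.86 and 5.64 FPKM in zone 2, and 0.319, 4.11 and 5.53 FPKM in zone 3. Here replicate 1 was the low library of zones 2 and 3 and the high library of zone 1. At dpc16 the values were 1.32, 2.37 and 0.255 FPKM in zone 1, 2.02, 3.12 and 5.98 FPKM in zone 2, and 2.38, 3.30 and 3.81 FPKM in zone 3. No library of a pregnant mouse reached the level of the 4 high NP libraries, yet the NP group of every zone also held values of under 1 FPKM, so that the stages overlapped widely.

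Npas2, the partner that can replace Clock (chromosome 1, 39193731 to 39363236, ENSMUSG00000026077.15), was near the floor in most libraries. It was at 0.0725, 7.81 and 0 FPKM in NP zone 1, 0, 5.26 and 3.03 FPKM in NP zone 2, and 0.0431, 6.91 and 0.0492 FPKM in NP zone 3. The 4 NP libraries with high Npas2 were those with the highest Arntl. At dpc8 the 3 libraries held 0.601, 0.600 and 1.003 FPKM in zone 1, 0.0747, 0.652 and 0.838 FPKM in zone 2, and 0, 0.828 and 1.66 FPKM in zone 3. At dpc16 they held 0.309, 0.197 and 0 FPKM in zone 1, 0.231, 0.226 and 1.76 FPKM in zone 2, and 0.0368, 0.255 and 0.272 FPKM in zone 3. The gene was listed at 0 in 4 libraries and reached 1 FPKM in 7, so most of its values rest on few reads.

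Clock itself (chromosome 5, 76209868 to 76304792, ENSMUSG00000029238.11) was the steadiest of the 10 genes, from 4.28 to 16.4 FPKM with a highest to lowest ratio of 3.82. In NP mice it was at 8.03, 14.5 and 4.53 FPKM in zone 1, 5.85, 12.8 and 16.4 FPKM in zone 2, and 5.84, 11.6 and 4.28 FPKM in zone 3. The high libraries were again replicate 2 of every zone and replicate 3 of zone 2. At dpc8 it was at 5.36, 9.63 and 9.75 FPKM in zone 1, 5.68, 10.1 and 11.4 FPKM in zone 2, and 5.81, 12.3 and 12.95 FPKM in zone 3, with replicate 1 lowest throughout. At dpc16 it was at 14.4, 14.1 and 7.47 FPKM in zone 1, 14.4, 11.6 and 6.27 FPKM in zone 2, and 15.7, 13.6 and 6.01 FPKM in zone 3, with replicate 3 lowest throughout. Which replicate was low therefore differed between the pregnant stages but was the same in the 3 zones of each.

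Among the repressors, Per1 (chromosome 11, 69095217 to 69109960, ENSMUSG00000020893.17), a period gene that also answers quickly to hormonal and feeding signals, was low in the 4 NP libraries with high Arntl. In NP mice it was at 24.6, 2.44 and 21.1 FPKM in zone 1, 34.5, 4.86 and 0.262 FPKM in zone 2, and 32.0, 1.39 and 15.8 FPKM in zone 3. At dpc8 the values were 16.96, 7.60 and 2.199 FPKM in zone 1, 15.8, 6.64 and 2.02 FPKM in zone 2, and 13.6, 1.55 and 0.741 FPKM in zone 3. In each zone at dpc8 replicate 1 was highest and replicate 3 lowest. At dpc16 Per1 was at 12.96, 18.8 and 15.99 FPKM in zone 1, 24.3, 14.4 and 9.94 FPKM in zone 2, and 12.8, 13.1 and 13.3 FPKM in zone 3, a range without the low values of the other stages.

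Per2 (chromosome 1, 91415982 to 91459324, ENSMUSG00000055866.9), its closest relative in the loop, was at 5.70, 1.31 and 11.7 FPKM in NP zone 1, 7.16, 1.26 and 2.58 FPKM in NP zone 2, and 6.09, 0.569 and 8.82 FPKM in NP zone 3. At dpc8 it was at 3.62, 3.21 and 4.14 FPKM in zone 1, 6.90, 0.813 and 0.722 FPKM in zone 2, and 6.43, 0.936 and 0.829 FPKM in zone 3. Replicate 1 stood above the others in zones 2 and 3 at dpc8 but not in zone 1. At dpc16 the values were 2.32, 3.56 and 10.2 FPKM in zone 1, 14.9, 2.77 and 2.53 FPKM in zone 2, and 2.32, 2.19 and 2.58 FPKM in zone 3, so that 1 library stood high in zone 1 and a differently numbered one in zone 2.

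Per3 (chromosome 4, 151003652 to 151044665, ENSMUSG00000028957.12), the period gene least needed for rhythm in mice, had the widest span of the genes detected in every library, with a highest to lowest ratio of 492. In NP mice it was at 9.63, 0.115 and 20.96 FPKM in zone 1, 10.1, 0.330 and 2.01 FPKM in zone 2, and 11.01, 0.0441 and 17.3 FPKM in zone 3. The value of 0.0441 amounts to very few reads, so the ratio is imprecise. At dpc8 it was at 7.37, 8.86 and 6.10 FPKM in zone 1, 15.3, 2.80 and 3.84 FPKM in zone 2, and 15.03, 1.94 and 2.53 FPKM in zone 3. At dpc16 it was at 2.82, 3.87 and 21.7 FPKM in zone 1, 1.78, 4.61 and 9.10 FPKM in zone 2, and 2.02, 3.32 and 7.65 FPKM in zone 3, with replicate 3 highest in each.

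Cry1 (chromosome 10, 85131700 to 85185064, ENSMUSG00000020038.10), the cryptochrome that represses Arntl and Clock late in the cycle, followed another order. In NP mice its libraries lay close together, at 6.50, 11.9 and 9.98 FPKM in zone 1, 11.5, 13.7 and 10.4 FPKM in zone 2, and 3.97, 8.15 and 4.52 FPKM in zone 3. At dpc8 they were at 8.06, 2.54 and 2.95 FPKM in zone 1, 21.1, 2.70 and 1.82 FPKM in zone 2, and 4.51, 1.83 and 1.56 FPKM in zone 3. Replicate 1 was the highest at dpc8 in each zone, and the rest lay below the NP libraries of their zone. At dpc16 they were at 2.86, 12.3 and 5.81 FPKM in zone 1, 1.65, 2.94 and 9.52 FPKM in zone 2, and 14.2, 6.88 and 41.9 FPKM in zone 3, the last being the highest Cry1 level of all 27 libraries.

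Nr1d1 (chromosome 11, 98767932 to 98775333, ENSMUSG00000020889.11), the heme-binding nuclear receptor that closes the second loop on Arntl, was at 21.2, 23.5 and 9.63 FPKM in NP zone 1, 41.3, 21.8 and 2.19 FPKM in NP zone 2, and 42.2, 19.4 and 12.8 FPKM in NP zone 3. The NP libraries with replicate number 2, in which Dbp was nearly absent, thus held Nr1d1 at 19.4 to 23.5 FPKM. At dpc8 it was at 15.2, 37.3 and 47.6 FPKM in zone 1, 17.1, 24.95 and 42.9 FPKM in zone 2, and 15.5, 42.9 and 55.4 FPKM in zone 3. At dpc16 it was at 17.5, 40.5 and 29.3 FPKM in zone 1, 17.9, 40.9 and 16.4 FPKM in zone 2, and 29.3, 38.0 and 24.8 FPKM in zone 3. Replicate 3 was highest in each zone at dpc8 and replicate 2 in each zone at dpc16. Of its 3077 annotated exonic bases, 263 are shared with Thra on the other strand, and since strand was not stated for the counting, reads there may belong to either gene.

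Dbp (chromosome 7, 45705088 to 45710203, ENSMUSG00000059824.12), an output transcription factor that drives detoxification genes in liver, had the widest within-group spread of the 10 genes on the log2(FPKM + 1) scale. In NP mice it was at 43.3, 0.481 and 83.9 FPKM in zone 1, 77.7, 0.727 and 1.04 FPKM in zone 2, and 91.3, 0.366 and 106 FPKM in zone 3. The 4 libraries with 1.04 FPKM or less were the 4 with the highest Arntl, and the rest of the NP libraries held at least 43.3 FPKM. At dpc8 the values were 28.8, 34.4 and 34.2 FPKM in zone 1, 67.8, 17.8 and 24.2 FPKM in zone 2, and 79.7, 27.5 and 24.6 FPKM in zone 3. At dpc16 they were 11.2, 30.7 and 99.0 FPKM in zone 1, 9.75, 17.9 and 31.3 FPKM in zone 2, and 12.7, 18.98 and 56.3 FPKM in zone 3. No library of a pregnant mouse fell below 9.75 FPKM. Of its 2993 exonic bases, 539 are shared with Sphk2 on the other strand.

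Tef (chromosome 15, 81802421 to 81826863, ENSMUSG00000022389.15), a relative of Dbp in the same family of leucine zipper factors, had the highest median level of the 10 genes, 67.6 FPKM. It was at 86.9, 31.4 and 144 FPKM in NP zone 1, 179, 26.7 and 22.1 FPKM in NP zone 2, and 178, 6.85 and 145 FPKM in NP zone 3. At dpc8 it was at 104, 86.5 and 67.4 FPKM in zone 1, 161, 31.8 and 66.2 FPKM in zone 2, and 213, 67.5 and 38.3 FPKM in zone 3. It was low in the same 4 NP libraries as Dbp, but the gap to the others was smaller. At dpc16 it was at 36.5, 68.8 and 162 FPKM in zone 1, 56.1, 67.6 and 77.6 FPKM in zone 2, and 75.5, 54.7 and 67.5 FPKM in zone 3.

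**Figure D1:**
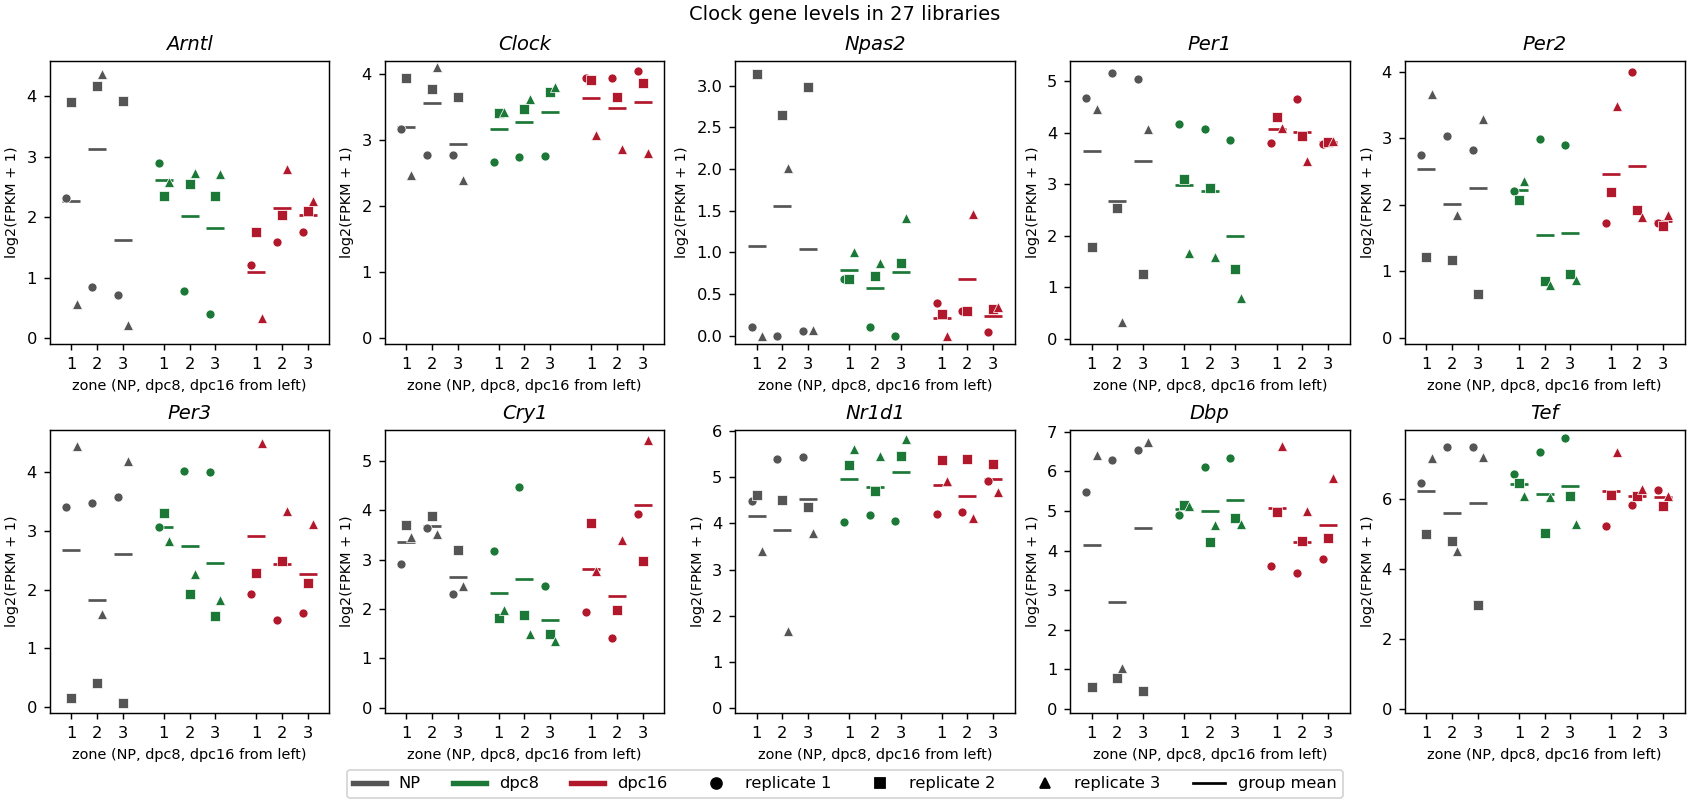
Level of each clock gene, log2(FPKM + 1), in every library by zone (1 to 3) within NP (grey), dpc8 (green) and dpc16 (red), with symbols for replicates 1 to 3 and a bar for the group mean. In NP mice the squares (replicate 2) lie high for Arntl, Clock and Npas2 and low for Per3, Dbp and Tef in all 3 zones, and the NP zone 2 triangle lies with them.

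The first question was whether pregnancy shifted the clock genes. Averaged over zones, with 1 mean for each stage and replicate number and 3 means per stage, none of the 10 genes passed limma's test at an adjusted p of 0.05 in any of the 3 stage comparisons, and none had an unadjusted p under 0.05. The background was low at dpc8, where 0.0154% of all genes were called against NP, and 3.08% at dpc16 against NP and 2.14% at dpc16 against dpc8, so 0 of 10 is not a result that sets these genes apart. Both pregnant stages were compared with the same NP libraries. The study describes its experiments as independent and in different mice, but the labels do not tie a library to a mouse. Which libraries of different zones share a mouse is therefore not known, and p-values from fits that take all 27 libraries as separate may be too small. Without the 6 libraries with high Y-linked genes, again none of the 10 was called in these comparisons (lowest limma adjusted p = 0.247, for Per1 at dpc16 against dpc8), which were then fitted over libraries with a replicate block in place of means.

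At dpc8 against NP, the fitted log2 fold changes ran from -0.99 for Cry1 to 1.30 for Dbp, with 5 genes up and 5 down and a median of -0.06 against 0.00 over all genes. For Cry1 the 95% interval ran from -2.12 to 0.14, and for Dbp from -1.43 to 4.03. At dpc16 against NP they ran from -0.84 for Npas2 (-2.25 to 0.56) to 0.84 for Dbp (-1.89 to 3.57). Arntl stood at -0.57 (-2.02 to 0.87) and Per2 at -0.01 (-1.24 to 1.23) in that comparison. From dpc8 to dpc16 the largest estimate was that of Per1, 1.35 (-0.47 to 3.17), followed by Cry1 at 0.82 (-0.31 to 1.95). The median width of the interval over the 10 genes was 2.85 log2 units, against 1.06 over all genes tested, so that changes of several fold in either direction lie within the intervals. A difference between stages was not detectable at this spread, which is not the same as no difference. Single sets of libraries carried some of the estimates. Without NP replicate 2, the Dbp estimate went from 1.30 to -0.30 at dpc8 and from 0.84 to -0.76 at dpc16, and that of Arntl at dpc16 from -0.57 to 0.26. The Npas2 estimate at dpc16 against NP also leaned on NP replicate 2. Its means of log2(FPKM + 1) in replicates 1, 2 and 3 were 0.05, 2.92 and 0.69 in NP mice and 0.25, 0.29 and 0.60 at dpc16. The change of Per1 from dpc8 to dpc16 was 2.06 without dpc8 replicate 1 and 0.72 without dpc8 replicate 3, instead of 1.35. That of Cry1 was 1.39 without dpc8 replicate 1, 0.51 without dpc8 replicate 3 and 0.42 without dpc16 replicate 3, instead of 0.82, and without dpc8 replicate 1 its change at dpc8 against NP was -1.55 instead of -0.99. None of these was past the adjusted threshold. Without the 6 libraries with high Y-linked genes, the Cry1 change from dpc8 to dpc16 was 0.38.

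**Figure D2:**
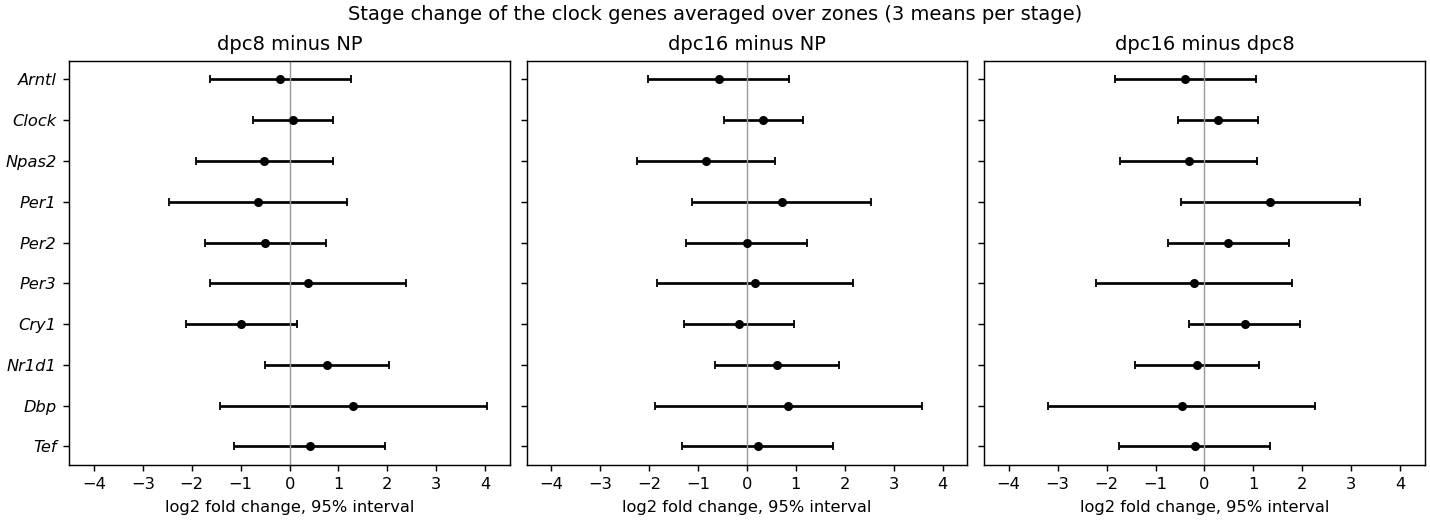
Log2 fold change of each clock gene between stages, averaged over zones, with 95% intervals from limma (3 means per stage). Every interval includes 0, and those of Dbp are the widest.

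Within single zones none of the 10 genes passed the test in any of the 9 stage comparisons either. The shares of all genes called were 0.0309%, 0.00772% and 0.0154% at dpc8 against NP in zones 1, 2 and 3, 1.37%, 2.66% and 1.32% at dpc16 against NP, and 2.01%, 1.51% and 1.37% at dpc16 against dpc8. Over these 9 comparisons, the only unadjusted p-values under 0.05 were 2 of Cry1, both at dpc16 in zone 3. Against dpc8, Cry1 was higher by 2.34 log2 units (0.92 to 3.75; limma adjusted p = 0.0966). The 3 values at dpc16, with a mean of 20.99 ± 18.5 FPKM (SD, n = 3), all exceeded the 3 at dpc8, with a mean of 2.63 ± 1.63 FPKM. Against NP in the same zone the estimate was 1.45 (0.03 to 2.87; limma adjusted p = 0.417), with overlapping values. In zone 2 the order was opposite: the Cry1 values at dpc16, 1.65 to 9.52 FPKM, all lay below those of NP mice, 10.4 to 13.7 FPKM, with a log2 fold change of -1.42 (-2.83 to 0.00; limma adjusted p = 0.302).

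The Cry1 difference in zone 3 leaned on the library with 41.9 FPKM, which is 1 of the 6 with high Y-linked and smooth muscle markers, and the part of these cells in the result was not tested. Without that library the estimate against dpc8 was 1.68 instead of 2.34. Leaving out each library of that comparison in turn gave 1.68 to 2.90, none past the adjusted threshold. The estimate against NP leaned on the same library. In zone 3 the log2(FPKM + 1) values at dpc16 were 3.92, 2.98 and 5.42 in replicates 1, 2 and 3, against an NP mean of 2.66. With limma's library weights, which count libraries that fit poorly for less, the gene passed in both places (adjusted p = 0.0114 in zone 3 against dpc8 and 0.0492 in zone 2 against NP), while the share of all genes called rose as well. With the libraries of the same stage and number taken as a replicate block, the adjusted p in zone 3 was 0.0718.

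The groups of 3 did not overlap for Cry1 in those 2 comparisons, against 17.4% of all genes in zone 2 and 23.3% in zone 3. At dpc16 against dpc8 in zone 1, Arntl and Npas2 also lay below without overlap, where 19.9% of all genes did not overlap in either direction. For Arntl the log2 fold change there was -1.51 (-3.49 to 0.47; limma adjusted p = 0.539), and for Npas2 -0.57 (-2.16 to 1.02; adjusted p = 0.789). In the other 6 stage comparisons within a zone, no clock gene had groups that did not overlap, against 6.52%, 10% and 9.81% of all genes at dpc8 against NP in zones 1, 2 and 3, 17.4% and 16.7% at dpc16 against NP in zones 1 and 3, and 13.8% at dpc16 against dpc8 in zone 2. These shares are near or above those of the clock genes.

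The next question was whether the clock genes differed between zones of the lobule, as many metabolic genes do. None of the 10 passed the test between zones 1 and 3 averaged over stages, where 5.59% of all genes were called, between zones 1 and 2 (0.919%) or between zones 2 and 3 (1.88%), and none had an unadjusted p under 0.05. The log2 differences of zone 1 minus zone 3 lay between -0.21 for Nr1d1 (-1.05 to 0.63) and 0.55 for Per2 (-0.39 to 1.49). Arntl stood at 0.16 (-0.98 to 1.31) and Clock, with the narrowest interval, at 0.02 (-0.54 to 0.57). The intervals of Clock, Cry1 (-0.83 to 0.80) and Npas2 (-0.91 to 0.93) lay within 1 log2 unit of 0 on both sides, though the log2(FPKM + 1) scale compresses the low values of Npas2. Those of the other 7 genes reached past 1 unit on at least 1 side. For Cry1 the average covers estimates of opposite sign, 0.69 in NP mice, 0.56 at dpc8 and -1.29 (-2.71 to 0.13) at dpc16.

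Within stages, the zone 1 against zone 3 comparison also called none of the 10 and gave none an unadjusted p under 0.05, against 1.34% of all genes in NP mice, 1.61% at dpc8 and 1.55% at dpc16. Values of zones 1 and 3 did not overlap in 1 case, Arntl at dpc16, where zone 1 lay below zone 3 by 0.95 log2 units on average (difference of -0.95, -2.93 to 1.04; limma adjusted p = 0.943). In that comparison 14.7% of all genes did not overlap, and in NP mice and at dpc8 0 of 10 clock genes did, against 12.7% and 23.2%. The change with stage did not differ between zones 1 and 3 for any of the 10 by the interaction test, which called 0 of all genes at dpc8 against NP (306 at an unadjusted p under 0.05, none a clock gene), 0.054% at dpc16 against NP and 0.0463% at dpc16 against dpc8. The nearest was Cry1 at dpc16 against NP, -1.99 (-3.99 to 0.02; limma adjusted p = 0.993). Its intervals, with a median width of 5.10 over the 10 genes, leave little power for that question.

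Within a replicate number, Cry1 was higher in zone 1 than in zone 3 in 3 of 3 pairs both in NP mice and at dpc8, and in 1 of 3 at dpc16. Clock was higher in zone 1 in 3 of 3 pairs in NP mice and lower in 3 of 3 at dpc8. Per1 was higher in zone 1 in 3 of 3 pairs at dpc8 and at dpc16, and Nr1d1 was lower in 3 of 3 at dpc8. At dpc16 Per3 was also higher in zone 1 in 3 of 3 pairs and Arntl lower in 3 of 3, while the other 7 genes, Cry1 among them, had pairs of both signs there. With the replicate block for each stage and number, none of the 10 genes was called between zones 1 and 3 within a stage, and the lowest limma adjusted p over the 10 was 0.766 in NP mice, 0.607 at dpc8 and 0.418 at dpc16. Only at dpc16 did same-numbered libraries of all zones deviate together over all genes. There, replicate 3 of zones 2 and 3 were both libraries with high Y-linked genes, whose part in this was not tested. The pairs of the other stages are set side by side by their label alone. How many of all genes had 3 pairs of the same sign was not determined, so these orders set no clock gene apart.

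What these genes had instead was a wide spread among libraries of one group. The standard deviation within groups of stage and zone, on the log2(FPKM + 1) scale, was 2.06 for Dbp, which only 0.564% of the 12952 genes tested reached or exceeded. It was 1.45 for Per3, 1.43 for Per1, 1.27 for Tef and also 1.27 for Arntl, all within the top 5% of genes. Per2 (1.04), Npas2 (1.01), Nr1d1 (0.93) and Cry1 (0.90) had a spread that 5.94% to 8.86% of genes reached or exceeded. Clock, at 0.60, ranked 3338. The median over the 10 was 1.15 against 0.45 over all genes, a description that was not tested.

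**Figure D3:**
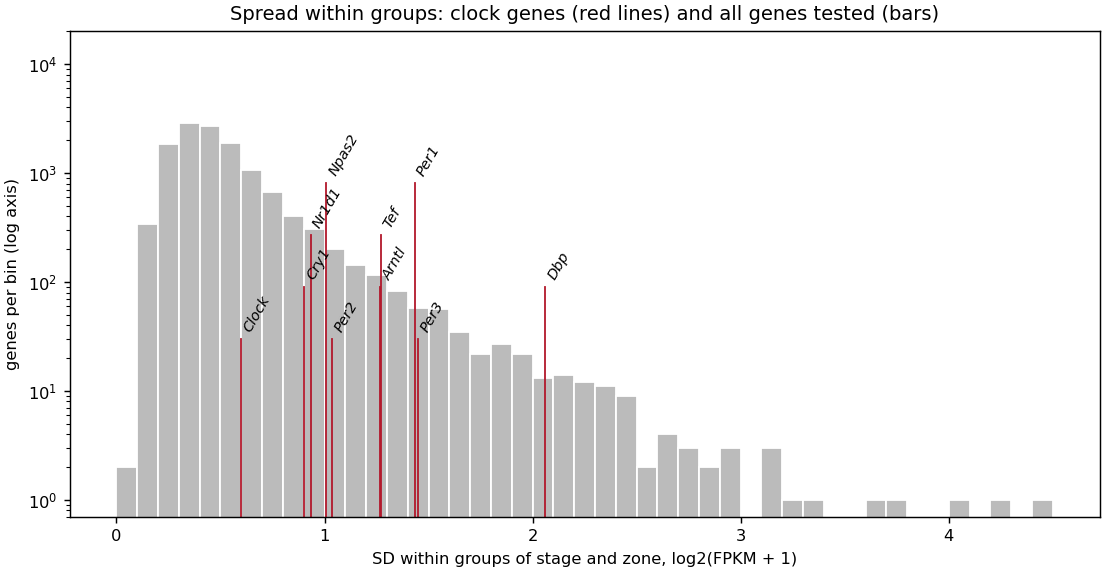
Standard deviation within the 9 groups on the log2(FPKM + 1) scale for all 12952 genes tested (bars, genes per bin of 0.1 on a log axis), with the 10 clock genes as red lines. The clock genes lie from 0.60 (Clock) to 2.06 (Dbp), all to the right of the all-gene median of 0.45.

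The spread was widest in NP mice. For 9 of the 10 genes the within-group standard deviation was largest there, with a median of 1.74 in NP, 0.97 at dpc8 and 0.61 at dpc16. Over all 12952 genes the medians were 0.43, 0.39 and 0.44, and 34.8% of genes had their largest spread in NP mice. Dbp went from 3.28 in NP mice to 0.78 at dpc8 and 1.17 at dpc16, and Per1 from 2.02 to 1.39 and 0.38. Cry1 was the exception, with 0.37 in NP mice, 1.08 at dpc8 and 1.06 at dpc16. The difference in spread between stages was not tested.

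The spread was arranged by replicate number. When the variation of each gene over the 27 libraries was divided into shares, the replicate number within a stage took 34.6% (Cry1) to 75.9% (Per3), with a median of 61.5% against 27.7% over all genes tested. The share of stage had a median of 8.06%, that of zone 2.99%, and that of stage by zone 3.92%, against 9.58%, 5.85% and 10.5% over all genes. Cry1 was again apart, with 18.2% for stage and 29.2% for stage by zone. What a number stands for is not given in the labels, and these shares and the distances between libraries rest on the numbers as labelled. Whether the numbers of some libraries were exchanged was not tested, and an exchange would change the shares, the distances and the fits with a replicate block.

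**Figure D4:**
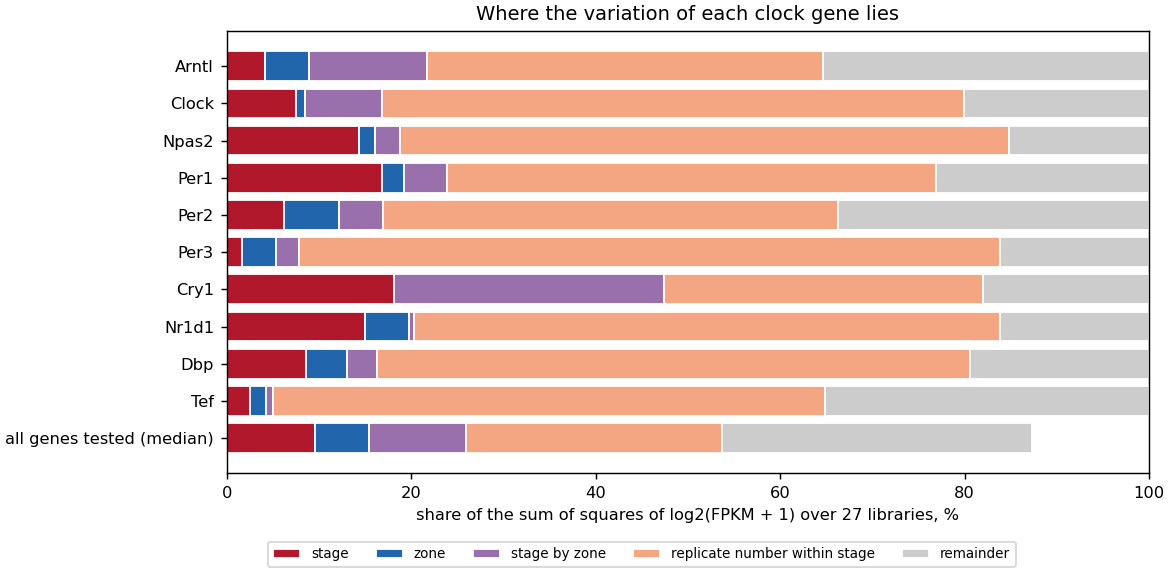
Division of the sum of squares of log2(FPKM + 1) over 27 libraries into shares of stage, zone, stage by zone, replicate number within stage and remainder, for each clock gene and as the median of each share over all genes tested (these medians do not add to 100%). The replicate number takes the largest share in each of the 10 genes, from 34.6% to 75.9%.

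Libraries of different zones were on the whole closer in the 10 genes together where they shared a number. In NP mice the mean absolute difference over the 10 genes between 2 zones had a median of 0.59 log2 units for the same number and 2.38 for different numbers. At dpc8 the medians were 0.60 and 1.06, and at dpc16 0.54 and 0.82. There were exceptions: the nearest library of another zone had the same number in 13 of 18 cases in NP mice, 14 of 18 at dpc8 and 11 of 18 at dpc16. The smallest distance at dpc8, 0.183, was that of zone 2 replicate 3 to zone 3 replicate 2, and at dpc16 zone 1 replicate 1 was nearer to replicate 2 of zones 2 and 3 (0.481 and 0.466) than to its own number (0.541 and 0.524). The farthest same-number pairs in NP mice were those of zone 2 replicate 3 with replicate 3 of zones 1 and 3, at 2.61 and 2.71, the largest of all 27 same-number pairs. That library was nearer to replicate 2 of zones 1 and 3, at 0.93 and 1.07. The largest same-number distances at dpc16 were those of zone 1 replicate 3, at 1.08 and 1.17, and those at dpc8 were of zone 1 replicate 1, at 0.79 and 0.84. Zone 2 replicate 3 of NP mice is not among the libraries with high Y-linked genes, nor is zone 1 replicate 3 of dpc16 mice, though the latter pairs with libraries that are. Zone 1 replicate 1 of dpc8 mice is one of the 6, with a Y-linked sum of 20.5 FPKM, and the part of this in its distances was not tested. Same-number pairs with at least 1 such library had a median distance of 0.63, and those without had 0.39.

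Arntl and Dbp ran against each other over the libraries. Pearson's r of their log2(FPKM + 1) values was -0.83 over 27 libraries (Spearman's rho -0.69), and -0.86 after the group means had been subtracted. Libraries of one number and stage may share an animal, and all share the scaling of FPKM, so this is a description and carries no p. Within stages, each over 9 libraries, r was -0.97 in NP mice (rho -0.83), -0.91 at dpc8 (rho -0.62) and -0.22 at dpc16 (rho 0.27). Over the 23 libraries other than the 4 with Dbp under 2 FPKM, left out after their values had been seen, r was -0.61. At dpc8 the value rests on 2 libraries: without replicate 1 of zones 2 and 3, whose Arntl level was under 1 FPKM and which were also left out after their values had been seen, r was -0.20 over 7 libraries.

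**Figure D5:**
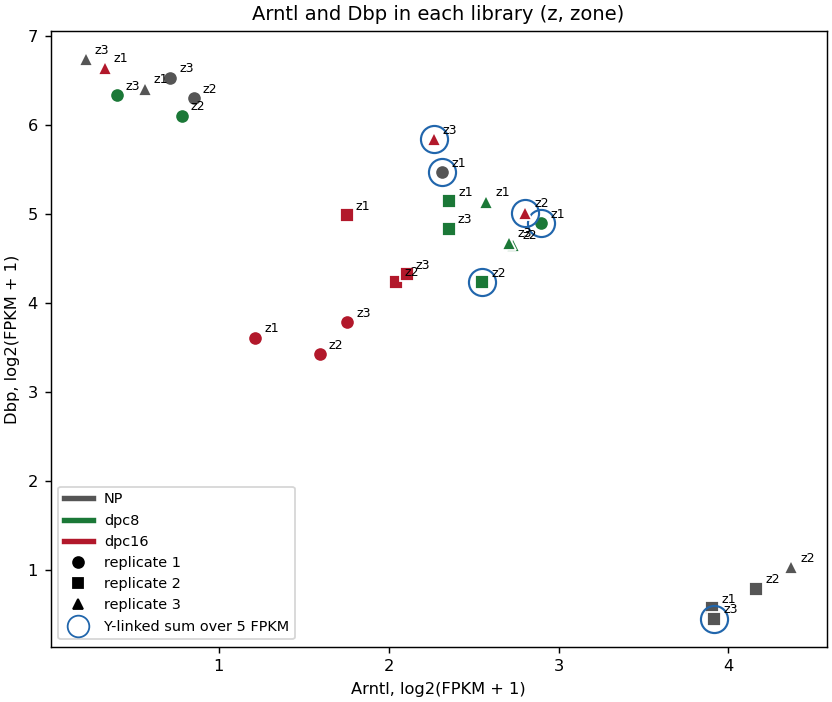
Arntl against Dbp, both as log2(FPKM + 1), in each of the 27 libraries, coloured by stage, with symbols by replicate number, labels by zone, and blue rings on the 6 libraries with Y-linked genes over 5 FPKM. At the lower right stand 4 NP libraries with Dbp of 0.366 to 1.04 FPKM and Arntl of 13.99 to 19.7 FPKM, and at the upper left 7 libraries of all 3 stages with Arntl under 1 FPKM.

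The signs of r divided most of the 10 genes in the same way. With Arntl, Clock and Npas2 on one side and Per1, Per2, Per3, Dbp and Tef on the other, sides that were set from these values, with Cry1 and Nr1d1 left out because they took neither, all 13 pairs of genes on the same side had a positive r (0.45 to 0.91) and all 15 pairs across had a negative one (-0.86 to -0.53). The sides being chosen this way, the counts describe the choice and support nothing. The closest pair was Dbp and Per3, at 0.91, followed by Dbp and Tef at 0.89 and Per3 and Tef at 0.88, and Arntl and Npas2 were at 0.86. Within NP mice and within dpc8 every one of the 28 pairs kept this sign, while at dpc16 9 of 13 and 13 of 15 did. By rho, further pairs had the other sign at dpc16: Arntl with Per3 (0.25), Dbp (0.27) and Tef (0.03), and Per1 with Tef (-0.07). Cry1 and Nr1d1 stood outside the division, with r between -0.32 and 0.26 in the 17 pairs that hold either of them. That holds over the 27 libraries and not within stages. Within dpc8, over 9 libraries, Cry1 had an r of 0.79 with Per1 and -0.86 with Clock, and Nr1d1 the opposite signs, -0.94 with Per1 and 0.93 with Clock. In NP mice Cry1 had -0.44 with Per1 and 0.56 with Clock, and Nr1d1 had 0.59 and -0.31.

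Among all 12952 genes, those most like Arntl over the 27 libraries were Caprin1 (r = 0.88), Npas2 (0.86), Tubb2a (0.83), Loxl4 (0.82) and Lgalsl (0.79). Those most opposed were Pcsk4 (-0.89), Upp2 (-0.88), Nr1d2 (-0.83), Dbp (-0.83) and Slc35g1 (-0.83). The genes most like Dbp were Per3 (0.91), Nr1d2 (0.90), Tef (0.89), Rgs16 (0.83) and Bach1 (0.78), and the most opposed were Tubb2a (-0.87), Npas2 (-0.86), Chka (-0.85), Arntl (-0.83) and Loxl4 (-0.80). Of the 10 clock genes, 1 was thus among the 5 nearest to Arntl and 2 among the 5 nearest to Dbp. After the group means were subtracted, Npas2 stayed among the 5 nearest to Arntl (0.90), and Per3 (0.94) and Tef (0.91) were the 2 nearest to Dbp.

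The rest of the clock machinery showed the spread in part. Of 11 other clock transcription factors, 10 were tested, Rorb being at most 0.238 FPKM, and none was called in any of the 21 comparisons, in which 0% to 5.59% of all genes were. In lists this short, 0 calls does not set the genes apart. Ciart, a repressor of Arntl and Clock, had a within-group standard deviation of 1.94, ranking 93, and was the 1 factor of this list in the top 5% of spread. Of 16 kinases, ubiquitin ligases and cofactors that act on clock proteins none was called, and Usp2, a deubiquitinase of Per and Cry proteins, was the 1 in the top 5% (1.87, rank 115). The median spread of that list, 0.35, lay below the 0.45 of all genes.

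Of 15 liver genes known as outputs of the clock, 4 were in the top 5% of spread: Noct, which encodes nocturnin (1.27), Wee1, a kinase that holds back mitosis (1.15), Alas1, the first enzyme of heme synthesis (1.37), and Cyp2a5 (1.11), a cytochrome P450. None of the 15 was called between stages averaged over zones, and 1, Elovl3, a fatty acid elongase, was lower at dpc16 than at dpc8 in zone 3 (log2 fold change -2.78, limma adjusted p = 0.00283), where 1.37% of all genes were called. Elovl3 was listed at 0 in 7 libraries and reached 1 FPKM in 11, so many of its values rest on few reads. Between zones 1 and 3 over the stages, where 5.59% of all genes were called, 4 of the 15 were lower in zone 1: Cyp2a5 by a log2 difference of -5.21, Cyp7a1, the first enzyme of bile acid synthesis, by -2.83, Elovl3 by -1.83 and Nr1i3, the nuclear receptor CAR, by -0.97 (limma adjusted p of 8.26e-08, 0.00013, 0.00013 and 0.0145). Of 10 rhythmic genes driven by systemic cues such as glucocorticoids and temperature, none was called in any of the 21 comparisons, against the same 0% to 5.59% of all genes, and none was in the top 5% of spread. Their median log2 fold change was nonetheless away from 0 at dpc16, at 0.62 against NP and 0.85 against dpc8 averaged over zones, where the medians of all genes were -0.01 and -0.01 and the shares called 3.08% and 2.14%. Without the 6 libraries with high Y-linked genes, which include replicate 3 of zones 2 and 3 at dpc16, these were 0.67 and 0.90. From dpc8 to dpc16 the median was 0.31 in zone 1, 0.97 in zone 2 and 1.002 in zone 3 with all libraries, and 0.74, 0.90 and 1.09 without the 6. The other lists had medians on the other side of 0 or nearer to it at dpc16 averaged over zones: -0.30 against NP and -0.33 against dpc8 for the clock transcription factors, -0.30 and -0.31 for the liver outputs, and 0.13 and 0.06 for the kinases, ligases and cofactors. Without the 6 libraries these were, in the same order, -0.35 and -0.32, -0.49 and -0.29, and 0.09 and 0.15. These medians are a description and were not tested.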

How the data were processed

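RNA of 27 libraries from laser-dissected liver zones was measured by RNA-seq after depletion of ribosomal RNA. The authors trimmed adapters with cutadapt, mapped the reads to mm10 with HISAT2 2.1.0, kept unique hits and ran Cuffdiff of Cufflinks 2.2.1 over protein-coding GENCODE vM22 genes, and the FPKM values deposited were used as they stand. FPKM hold no read counts, so depth was estimated from the steps between low values (92.98% to 99.36% of those examined lay within 0.1 of a whole read, assuming fragments of 200 bases), and no counting interval was computed.

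Groups and replicate numbers came from the sample titles. The 10 genes, the other lists and the tests were chosen with earlier results of these data known. All 10 genes are named, and of the lists those that passed a stage or zone comparison averaged over the other factor, at most 4 per list (Cyp2a5, Cyp7a1, Elovl3 and Nr1i3). Ciart, Usp2, Noct, Wee1 and Alas1 were named for their spread after their values had been seen, and Rorb because it was not tested. Genes with at least 1 FPKM in at least 3 libraries (12952 of 21823) were tested with limma 3.58.1 (R 4.3.3; trend and robust options) on log2(FPKM + 1), which understates changes of low genes, in 21 comparisons, two-sided, with Benjamini-Hochberg adjustment over all genes tested. The fit used 27 libraries in 9 groups, or 9 means of stage and number for stage changes averaged over zones. limma was used in place of the study's Cuffdiff, which needs reads. The fits were also run on simulated data in which every library varied independently, so that run does not cover libraries that vary together by number. Lists were described by counts and medians, without set tests, and correlations carry no p.

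The replicate numbers recur in all groups. At dpc16 each of the 9 pairs of libraries that share a number but not a zone had deviations correlated at over 0.1 (0.26 to 0.86). Between NP and dpc8 this held in zones 1 and 3 and not in zone 2, and it held in no other set of groups. At dpc16, replicate 3 of zones 2 and 3 were both libraries with high Y-linked genes. So was replicate 1 of zone 1 both in NP mice and at dpc8. Their part in these correlations was not tested, nor was whether a number marks a mouse. Pairing of zones by number entered only the alternative fits with a replicate block, at all stages, and the main zone comparisons were unpaired. Gene positions came from GENCODE vM21 (GRCm38), with identifiers equal to those of the table for all 10 genes, and promoter windows from RefSeq (GRCm38.p6). Alternatives covered the pseudocount, the filter, median-ratio and quantile scaling, library weights, replicate blocks, libraries left out and the groups in the fit. Figures were drawn with matplotlib 3.10.9 (Python 3.11.15).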

Additional observations from a re-analysis of the deposited data

How the results depend on the processing

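No clock gene was called in the 21 comparisons (210 estimates) with a pseudocount of 0.1, without the filter, with median-ratio or quantile scaling, or with a replicate block for each stage and number. Other settings were run on some of the comparisons, and no clock gene was called with the replicate number as a block over all groups (90 estimates), with only the groups compared (90), with 27 libraries as separate samples (30), without the 6 libraries with high Y-linked genes (180, and 30 with a replicate block), or in the 36 fits that each left out 1 library or 1 mean (lowest limma adjusted p = 0.077, for Cry1 at dpc16 against dpc8 in zone 3 without dpc16 zone 3 replicate 2). The paired fit, with a replicate block for each stage and number (correlation within blocks 0.193), gave 0 calls, and its lowest adjusted p was 0.0718, for Cry1 at dpc16 against dpc8 in zone 3. Library weights gave 1 call at dpc16 against NP in zone 2 and 1 at dpc16 against dpc8 in zone 3, both Cry1, whose log2 fold change in the latter was then 1.95 instead of 2.34. The genes called among all rose at the same time from 345 to 1101 and from 178 to 1567, and the cause was not tested. Leaving out 1 mean at a time, the stage change averaged over zones ranged from -0.30 to 2.45 for Dbp at dpc8 against NP, from -0.76 to 1.99 for Dbp at dpc16 against NP and from -1.09 to 0.26 for Arntl at dpc16 against NP, the sign turning without NP replicate 2, and the cause was not tested. Leave-one-out fits turned the sign of 322 of 1800 estimates, a pseudocount of 0.1 of 13 of 210, quantile scaling of 15 of 210, library weights of 35 of 180, and leaving out the libraries with high Y-linked genes of 31 of 180, none of them called. Depth limits the low end: Npas2 and the lowest Per3 and Dbp values rest on few reads.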
